A study of Drosophila melanogaster with 29 samples.

Results

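The genes described here are vitelline membrane and other eggshell genes of Drosophila melanogaster: Vm26Aa, Vm26Ab, Vm26Ac, Vm32E, Vm34Ca, Vml, Femcoat, yellow-g and yellow-g2. A gene was read from the adult arrays where a probe set carries its symbol and no other, which gave 7 of the 9 genes 1 probe set each, out of 10844 genes named alone by at least 1 of the 13966 probe sets tested. Vm26Ab and Vml were not analysed here. The study profiled whole adult flies with and without Mnn1, the fly homologue of the human MEN1 tumour suppressor gene that encodes menin, a nuclear protein of histone methyltransferase complexes. Flies were 3 to 5 days past eclosion, raised at 25 degrees C and frozen whole, and the values are log2 RMA intensities, so a difference of 1 is a 2-fold change in signal.

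By their titles, the female arrays were 2 of mnn- flies (X46_Y79 and Y79_X46), 2 of heterozygotes (X113_Y79 and X84_X46), 1 of the control stock X113_X84 and 1 of wild type (wt). The male arrays were 3 of mnn- flies (X46_Y79, Y79_X46 and Y79_Y79), 1 of the control stock X113_X84 and 1 of wt. There was no heterozygote male. A free-text note attached to all 11 arrays calls the flies homozygous for protein-null alleles, which contradicts the titles of the heterozygote, control and wt arrays, and the titles were used. The labels do not say what X113, X84, X46 and Y79 are, how many flies went into an array or whether the arrays of a group came from separate cultures, so the p-values measure only the spread between these arrays. The probe set for Mnn1 gave 6.17 and 5.91 in mnn- females, 5.63 and 5.96 in heterozygote females, 5.75 in control and 5.63 in wt females. In males it gave 5.50, 5.41 and 5.17 in mnn-, 5.40 in control and 5.51 in wt flies, so this probe set did not separate the genotypes, and where it lies relative to the lesions is not known.

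The Drosophila eggshell is built by the somatic follicle cells that surround each developing oocyte. In mid-oogenesis they secrete the vitelline membrane, the inner layer against the oocyte, and afterwards the chorion, the patterned outer layers. Vitelline membrane and chorion genes are transcribed in short windows of follicle development, so their RNA in a whole female depends on how many egg chambers of those stages she holds. Males have no follicle cells. In whole-fly RNA, fewer cells that transcribe a gene and less RNA per cell cannot be told apart.

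Vm26Aa, Vm32E, Vm34Ca, Vm26Ab and Vml encode vitelline membrane proteins or proteins related to them, and Vm26Ac lies between Vm26Ab and Vm26Aa. In the Release 6 annotation Vm26Ab, Vm26Ac, Vm26Aa and psd, which encodes another vitelline membrane protein, follow each other with no gene between them. yellow-g and yellow-g2 belong to the yellow family, and yellow-g is needed for a rigid eggshell. They are neighbours with only a tRNA gene between them. Femcoat, an eggshell gene, lies between CG15570 and Muc4B.

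The array labelled wt male has to be described before the results, because it carried a female-type signal. Of 234 probe sets that were at least 2 log2 units higher on every mnn- and control female array than on every mnn- and control male array, 194 (82.9%) read higher on the wt male array than on all 4 other male arrays. The other male arrays held that place for 6 to 15 probe sets (2.56% to 6.41%), but unlike the wt male array they were used to choose the set. The mean of the 3 yolk protein genes was 7.07, 6.995 and 7.22 in mnn- males, 6.998 in control males and 11.06 in wt males. The mean of 20 probe sets of 16 germline genes was 4.82, 4.72 and 4.74 in mnn- males, 4.71 in control males and 5.38 in wt males. Male genes stayed at male level: 9 accessory gland probe sets averaged 7.74, 7.81 and 7.56 in mnn-, 8.32 in control and 8.11 in wt males, and 15 testis probe sets averaged 7.35 to 7.53 over all 5 male arrays. Comparisons below that use non-mutant males, other than control against wt, are therefore also given without wt. The array of heterozygote female 4 (X113_Y79) carried a male-type signal: of 303 probe sets at least 2 log2 units higher in those males, it read highest of all 6 female arrays on 127 (41.9%), and the other female arrays did so on 6.27% to 15.8%. The set was chosen on the mnn- and control arrays, so the fairest comparison is with the arrays it did not use, heterozygote female 5 at 15.8% and wt female at 14.2%. Its accessory gland mean was 3.92, against 3.32 to 3.44 on the other female arrays.

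Among females, every measured eggshell gene was highest in wt, and the other 5 arrays lay close together. The wt female array was above all 5 other female arrays for 7 of 7 genes, while 16.7% of all probe sets had that place. It exceeded the next highest female array by 1.66 to 2.67 log2 units, whereas the 5 other arrays spanned 0.38 to 0.90. Its excess over the mean of those 5 arrays was 2.07 for Vm34Ca, a 4.20-fold difference, and 3.15 for yellow-g, an 8.87-fold difference, with the other genes between them.

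**Figure D1:**
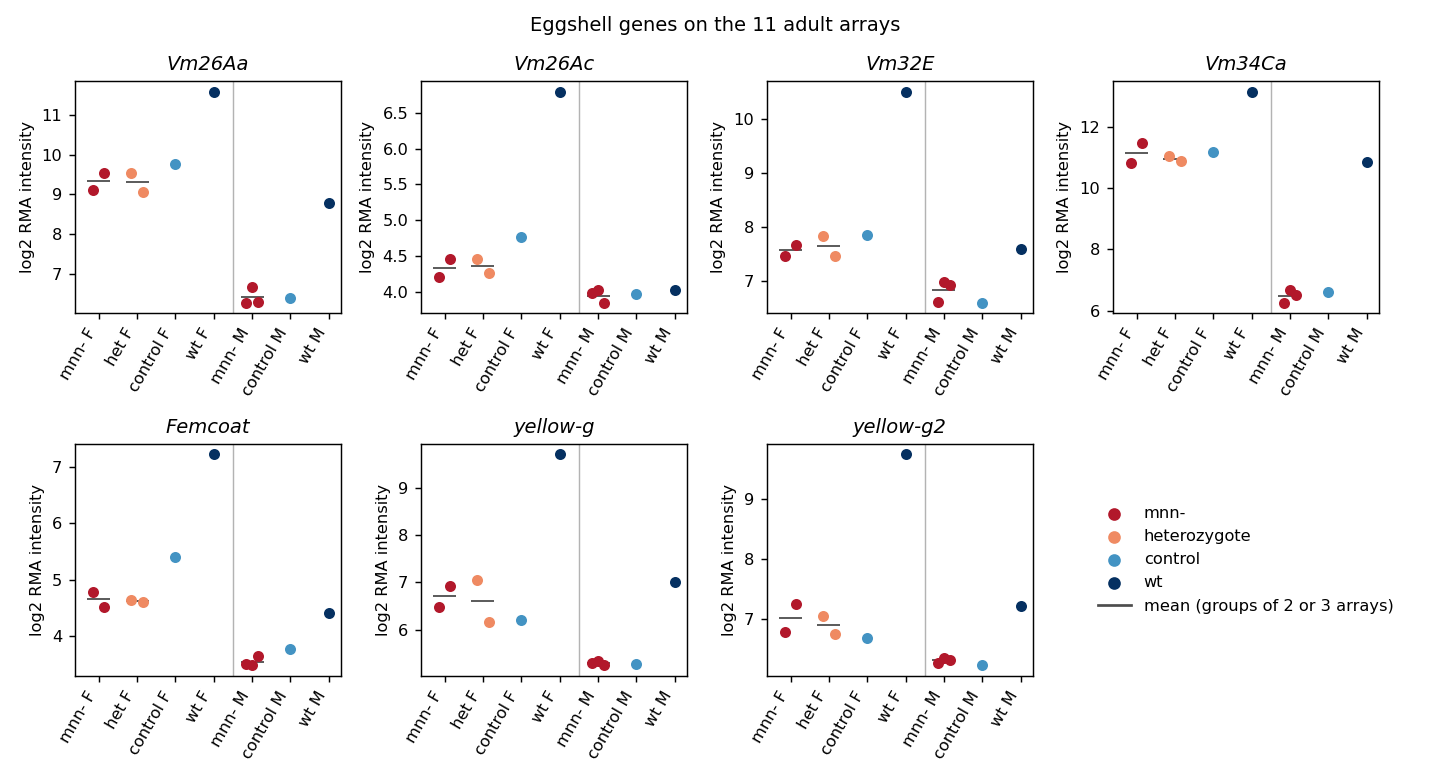
Log2 RMA intensity (y axis) of each measured eggshell gene on every adult array (points), by genotype or stock, with females left and males right of the grey line and horizontal lines for means of groups of 2 or 3 arrays. The wt female array is the highest female array in all 7 panels, and the wt male array lies above the other males by 0.0029 for Vm26Ac and by 4.16 for Vm34Ca.

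Vm26Aa, a major structural protein of the vitelline membrane, read 9.11 and 9.54 in mnn- females, 9.54 and 9.06 in heterozygotes, 9.76 in control and 11.59 in wt females. In males Vm26Aa read 6.27, 6.66 and 6.29 in mnn-, 6.38 in control and 8.78 in wt flies. Females thus lay above males in every group, and both wt arrays stood above the rest of their sex.

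Vm34Ca, another major structural protein, read 10.81 and 11.48 in mnn- females, 11.05 and 10.87 in heterozygotes, 11.16 in control and 13.14 in wt females. In males Vm34Ca read 6.26, 6.68 and 6.50 in mnn-, 6.60 in control and 10.83 in wt flies. The wt male array was at the level of the mnn-, heterozygote and control females for this gene, and 20.1-fold above the mean of the other 4 male arrays.

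Vm32E, a vitelline membrane protein that is also found in the chorion, read 7.46 and 7.66 in mnn- females, 7.83 and 7.46 in heterozygotes, 7.84 in control and 10.51 in wt females. In males Vm32E read 6.60, 6.97 and 6.93 in mnn-, 6.59 in control and 7.60 in wt flies. The step between the sexes was small outside wt: the mean of the 5 other female arrays lay 0.88 above that of the 4 other male arrays.

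Vm26Ac read 4.21 and 4.47 in mnn- females, 4.47 and 4.26 in heterozygotes, 4.76 in control and 6.79 in wt females. In males Vm26Ac read 3.98, 4.02 and 3.85 in mnn-, 3.97 in control and 4.03 in wt flies. This probe set was low everywhere except in wt females, and it was the gene for which the wt male array differed least from the other males, by 0.07 against their mean.

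Femcoat read 4.79 and 4.51 in mnn- females, 4.65 and 4.60 in heterozygotes, 5.41 in control and 7.22 in wt females. In males Femcoat read 3.51, 3.48 and 3.65 in mnn-, 3.76 in control and 4.42 in wt flies. Here the control female array stood apart from mnn- and heterozygote females as well, 0.62 above the next array.

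yellow-g read 6.48 and 6.93 in mnn- females, 7.05 and 6.16 in heterozygotes, 6.20 in control and 9.71 in wt females. In males yellow-g read 5.30, 5.33 and 5.24 in mnn-, 5.26 in control and 7.01 in wt flies. yellow-g2 read 6.78 and 7.24 in mnn- females, 7.03 and 6.74 in heterozygotes, 6.67 in control and 9.75 in wt females. In males yellow-g2 read 6.25, 6.34 and 6.32 in mnn-, 6.22 in control and 7.22 in wt flies. For these neighbours, as for Vm32E and Vm34Ca, the wt male array reached the range of the mnn-, heterozygote and control females. The control female array was not the second highest for them, unlike for Vm26Aa, Vm26Ac, Vm32E and Femcoat.

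Below wt, the order of the 5 other female arrays changed from gene to gene. Control came second for 4 of 7 genes, mnn- female 8 (Y79_X46) for Vm34Ca and yellow-g2, and heterozygote female 4 (X113_Y79) for yellow-g. Neighbouring arrays in these orders differed by at most 0.62. Heterozygote female 4 read above heterozygote female 5 for 7 of 7 genes, by 0.05 for Femcoat to 0.89 for yellow-g. Of the mnn- females, Y79_X46 read above X46_Y79 for 6 of 7 genes, by 0.19 to 0.67, and 0.27 below it for Femcoat. The males of the same names had the same signs for all 7 genes. Male Y79_X46 read above X46_Y79 by 0.37 to 0.42 for Vm26Aa, Vm32E and Vm34Ca. It read only 0.02 to 0.09 above it for yellow-g, Vm26Ac and yellow-g2, and 0.03 below it for Femcoat. Over all probe sets 46.7% had the same sign in both sexes. These are single arrays and the 7 genes are not independent replicates, so the differences within a genotype carry no test.

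The control stock was set against wt to ask whether the 2 kinds of non-mutant fly match. All 7 eggshell genes were lower in control than in wt females (limma, Benjamini-Hochberg adjusted p from 0.00011 to 0.0118), when 0.473% of all probe sets were called lower and 0.1% higher. The differences ran from -1.81 ± 0.17 for Femcoat (SE of the moderated fit) to -3.51 ± 0.34 for yellow-g, an 11.4-fold difference. yellow-g2 differed by -3.07 ± 0.22, Vm32E by -2.67 ± 0.22, Vm26Ac by -2.03 ± 0.17, Vm34Ca by -1.98 ± 0.28 and Vm26Aa by -1.83 ± 0.28. Their median was -2.03, and that of all probe sets was 0.02. Each stock has a single array per sex, so the spread in this fit comes from the heterozygote and mnn- arrays, and stock and individual array cannot be told apart. The count stayed at 7 when any single heterozygote or mnn- array was left out.

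Genes of the outer eggshell layers were lower in the control stock too. Chorion proteins were measured by 7 probe sets, all of which lay below 0 and 4 of which passed the test. The lowest were Cp38 (-3.08 ± 0.32) and Cp36 (-3.07 ± 0.34), which passed, and the nearest to 0 were Cp16 (-1.50 ± 0.41), which did not pass, and Cp18 (-1.55 ± 0.25), which did. Other genes of eggshell assembly gave 15 probe sets of 11 genes, of which 7 were called lower and 0 higher. The lowest were a pair of probe sets for Muc4B, a mucin-related gene beside Femcoat, at -4.18 ± 0.37 and -3.02 ± 0.16. The highest were clos at 0.38 ± 0.22 and fs(1)N at 0.25 ± 0.27, both genes of vitelline membrane proteins and neither called. Named after their values were seen, the other genes called lower were dec (-2.46 ± 0.30), Fcp3C (-2.19 ± 0.37), ndl (-2.14 ± 0.17) and psd (-1.88 ± 0.21). Of these, dec encodes a chorion scaffold protein and ndl a protease. The remaining genes of the list were not called. In control and wt females Pxt read 9.66 and 9.87, tsl 4.55 and 4.51, Pxd 4.53 and 4.65, and pip 2.76 and 2.90. Of the 66 probe sets called lower in control females, 18 (27.3%) belonged to these 3 groups, which hold 7, 7 and 15 of the 13966 probe sets tested. The groups were chosen with earlier results of these data known, so this share is only a description.

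**Figure D2:**
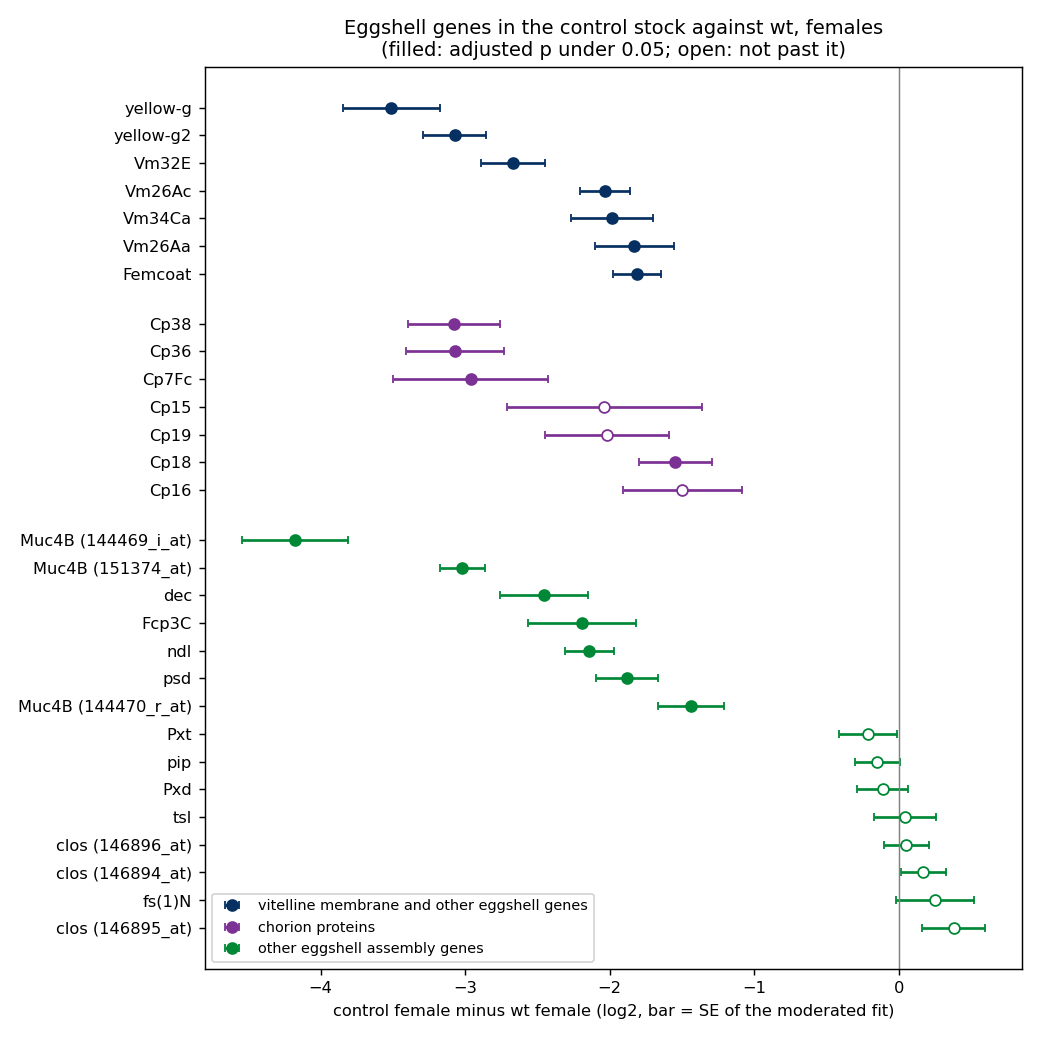
Control minus wt females (x axis, log2 difference, bars are SE of the moderated fit) for each probe set of the vitelline membrane and other eggshell genes, the chorion proteins and other eggshell assembly genes, filled where the adjusted p was under 0.05. All 7 probe sets of the first group and 4 of 7 for the chorion are filled and left of 0, and the 3 clos probe sets lie right of 0 and are open.

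The other gene lists moved less between these stocks in females. Germline genes had a median difference of -0.0047 between control and wt females over 20 probe sets, with 0 called and 0 at an unadjusted p under 0.05. Follicle cell genes and their regulators, such as slbo and tj, had a median of 0.03 over 11 probe sets of 8 genes. Of these, 0 were called and 1 had an unadjusted p under 0.05. Female minus male in mnn- flies had a median of only 0.19 for this list, against 2.52 for the germline list. Most of its probe sets thus carried little signal particular to females, so this list says little about follicle cell RNA. The 3 yolk protein genes, which are transcribed in fat body and follicle cells, lay 0.22 to 0.85 lower in control females, with 0 called and 2 at an unadjusted p under 0.05. Testis (median -0.0082, 15 probe sets) and accessory gland genes (median -0.06, 9 probe sets) had 0 called and 0 at an unadjusted p under 0.05. What part egg chamber number or stage has in the eggshell difference was not tested.

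Neighbouring genes, looked up after the differences were known, did not all follow. Beside the Vm26A genes, psd was lower in control than in wt females, as above, and CG13998 on the far side differed by -0.49 ± 0.16 (adjusted p = 0.527). Beside Femcoat, both CG15570 (-2.92 ± 0.25, adjusted p = 0.000316) and Muc4B were lower. The neighbours of Vm32E, Vm34Ca and yellow-g that have a probe set (Ca-beta, Boh2, CG7110, Flad2 and CG32302) differed by -0.13 to 0.22 and did not pass the test.

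In males the control stock was also below wt, for 5 of 7 eggshell genes, when 1.03% of all probe sets were called lower and 1.37% higher. The differences were -4.23 ± 0.28 for Vm34Ca (adjusted p = 3.85e-05), -2.39 ± 0.28 for Vm26Aa, -1.74 ± 0.34 for yellow-g, -1.0 ± 0.22 for Vm32E and -1.0 ± 0.22 for yellow-g2. Femcoat at -0.65 ± 0.17 (adjusted p = 0.0759) and Vm26Ac at -0.06 ± 0.17 (adjusted p = 0.90) did not pass. The count was 3 without mnn- female 7 or mnn- female 8, when 0.48% of all probe sets were called lower, and also 3 without mnn- male 10 or mnn- male 11, when 0.859% and 0.974% were. The wt male array read above all 4 other males for 7 of 7 eggshell genes, while 28.6% of all probe sets did so. That array also carried the female-type signal described above, and its yolk genes lay 3.70 to 4.17 above the mean of the other males. On a linear scale, the excess of the wt male array over the other males, as a percentage of the wt female level above the same males, was 19.4% for Vm34Ca, 11.8% for Vm26Aa, 11.2% for yellow-g, 9.08% for yellow-g2, 6.71% for Femcoat, 6.18% for Vm32E and 0.801% for Vm26Ac. The same percentage had a median of 6.02% over the female-biased probe sets (quartiles 3.45% and 8.70%), 14.8% over the chorion genes and 19.3% over the yolk genes. Whether female RNA on the wt male array accounts for its eggshell signal was not tested.

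The study's own contrast is loss of Mnn1, and against heterozygote females the eggshell genes of mnn- females did not differ by the test. The difference, mnn- minus heterozygote, ran from -0.09 for Vm32E to 0.19 for Vm34Ca, and 0 of 7 genes were called (limma, adjusted p 0.996 to 0.999, 0 at an unadjusted p under 0.05), when 0% of all probe sets were called. The mnn- and heterozygote arrays overlapped for all 7 genes, while 36.4% of all probe sets had no overlap. In the fit that gave these counts, the 95% interval ran from -2.06 to 2.44 for Vm34Ca and from -1.82 to 2.03 for yellow-g. Both include a 2-fold difference. For Femcoat it ran from -0.92 to 0.97. Giving wt and control separate levels keeps their gap out of the spread. The intervals were then -0.25 to 0.63 for Vm34Ca, -0.43 to 0.63 for yellow-g and -0.23 to 0.29 for Femcoat. Only in that fit does a difference of 2-fold lie outside all 3 intervals. Chorion genes had a median of -0.32 in this comparison (7 probe sets), but their differences ran from -1.45 to 0.72. The lowest was Cp15, at 8.78 and 10.92 in mnn- and 11.21 and 11.39 in heterozygote females. Other eggshell genes had a median of 0.03 (15 probe sets), and 0 were called in each list. The male-gland signal of heterozygote female 4 lies in the reference of this comparison, and without that array the count was again 0.

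Against the pooled non-mutant females, the answer depended on which stock stood as reference. With wt and control pooled, mnn- females read 1.00 to 1.67 lower, but 0 of 7 genes were called (adjusted p = 1, 3 at an unadjusted p under 0.05), when 0.00716% of all probe sets were called. The mnn- arrays lay below both non-mutant arrays for 4 of 7 genes (Vm26Aa, Vm26Ac, Vm32E and Femcoat), while 17.1% of all probe sets did so. With wt alone as the reference, all 7 genes were called lower in mnn- females, by 1.996 for Vm34Ca to 3.01 for yellow-g (adjusted p 1.71e-05 to 0.00205), when 0.802% of all probe sets were called lower. With control alone as the reference, 0 of 7 were called (2 at an unadjusted p under 0.05, adjusted p 0.89 to 1), when 0% of all probe sets were called. Against control, Femcoat was at -0.76 ± 0.14, Vm26Aa at -0.43 ± 0.24, Vm26Ac at -0.42 ± 0.15, Vm32E at -0.28 ± 0.19, Vm34Ca at -0.01 ± 0.24, yellow-g2 at 0.34 ± 0.19 and yellow-g at 0.50 ± 0.29. Without the control female array alone, 4 genes were called lower, when 0.379% of all probe sets were called lower.

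**Figure D3:**
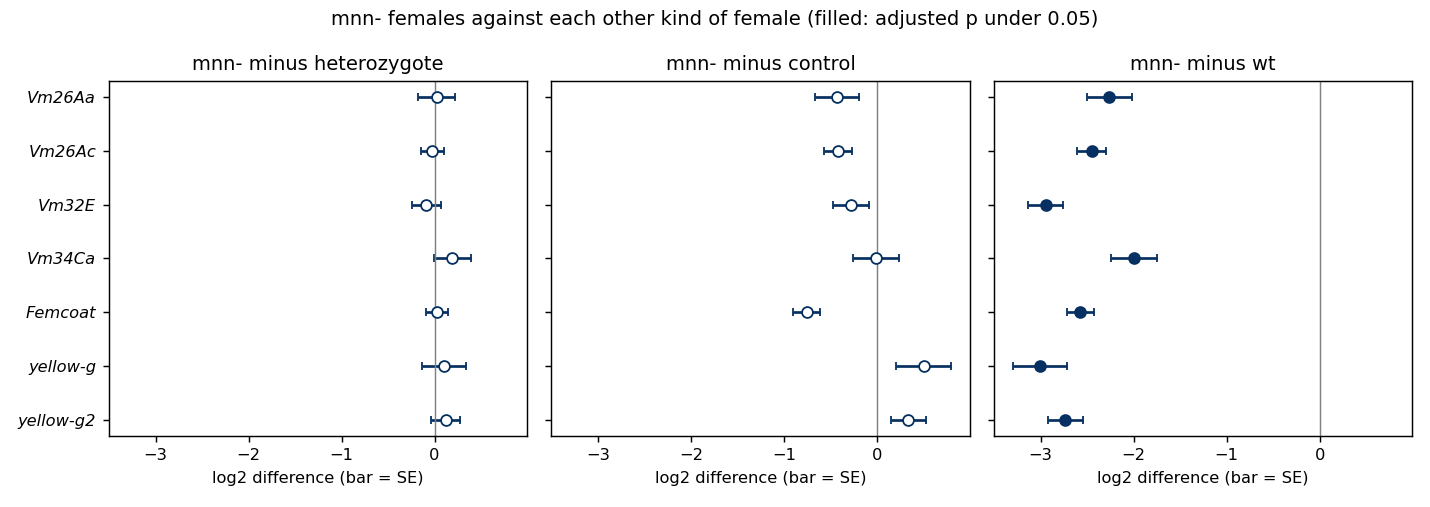
Log2 difference (x axis, bars are SE of the moderated fit) between mnn- females and heterozygote, control or wt females for the 7 eggshell genes, filled where the adjusted p was under 0.05. Points are open and between -0.76 and 0.50 against heterozygotes and control, and filled and between -3.01 and -1.996 against wt.

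Heterozygote females stood where mnn- females did. They read 1.19 to 1.69 below the pooled non-mutant females, with 0 of 7 genes called (limma, adjusted p = 1, 3 at an unadjusted p under 0.05), when 0% of all probe sets were called. Both heterozygote arrays lay below both non-mutant arrays for 5 of 7 genes, while 13.4% of all probe sets did so. Against wt alone 7 of 7 were called lower, by 2.19 to 3.11, when 0.709% of all probe sets were called lower. Against control alone 0 of 7 were called (2 at an unadjusted p under 0.05), with differences from -0.79 for Femcoat to 0.40 for yellow-g, when 0% of all probe sets were called. The heterozygote and mnn- comparisons share the control and wt arrays. Without the control female array alone, 4 genes were called lower, when 0.272% of all probe sets were called lower.

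In males, mnn- flies differed from pooled non-mutant flies by the test at none of the 7 genes. Differences between mnn- and pooled non-mutant males ran from -2.24 for Vm34Ca to -0.04 for Vm26Ac, with 0 of 7 called (limma, adjusted p 0.54 to 0.993, 1 at an unadjusted p under 0.05), when 0.0286% of all probe sets were called. Against control males alone they ran from -0.22 for Femcoat to 0.24 for Vm32E, with 0 called and 0 at an unadjusted p under 0.05, when 0.465% of all probe sets were called. Against wt males alone 5 were called lower, Vm34Ca by 4.36, when 0.78% of all probe sets were called lower. Without the control male array alone, wt was the only non-mutant male, and the Vm34Ca difference was -4.36. The effect of mnn- in females minus that in males was not called for any of the 7 genes (adjusted p 0.992 to 0.999, 1 at an unadjusted p under 0.05), when 0% of all probe sets were called. Without both wt arrays it was again 0 of 7 (adjusted p 0.698 to 0.972, 1 at an unadjusted p under 0.05), when 0% of all probe sets were called. Without the control female array 2 genes were called, both lower, when 0.0716% of all probe sets were called. Without both control arrays, where the wt male array is the only non-mutant male, 4 genes were called lower and 1 higher, when 0.387% of all probe sets were called.

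The sex difference, female minus male, was above 0 for all 7 genes in every stock and differed widely in size between genes. In mnn- flies Vm34Ca differed by 4.67 ± 0.93 and Vm26Aa by 2.92 ± 0.61, and Femcoat by 1.10 ± 0.39. These 3 of 7 genes were called higher in females (limma, adjusted p 0.00109 to 0.0303), when 30.4% of all probe sets were called higher in mnn- females than in mnn- males. Both mnn- female arrays lay above all 3 mnn- male arrays for 7 of 7 genes, while 36% of all probe sets did so. With wt and control as separate levels, which leaves the differences as they are, all 7 were called, when 31.2% of all probe sets were called higher. Vm26Ac, at 0.39 ± 0.11 in that fit, yellow-g2, at 0.70 ± 0.14, and Vm32E, at 0.73 ± 0.14, had the smallest of these differences. Leaving out the wt female array or the control female array gave 7 called genes, when 30.1% of all probe sets were called higher. Leaving out any 1 of the 5 mnn- arrays gave 2 of 7, close to the 26.9% to 29.3% of all probe sets called higher in those fits.

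Non-mutant females were higher than non-mutant males for 5 of 7 genes, by 1.78 to 3.43, when 28.7% of all probe sets were called higher. yellow-g (1.82 ± 0.87, adjusted p = 0.103) and yellow-g2 (1.49 ± 0.71, adjusted p = 0.101) did not pass, and for both the wt male array lay above the control female array. With wt left out, the control stock alone gave 6 of 7 called, when 25.4% of all probe sets were called higher, from 0.46 ± 0.22 for yellow-g2 (adjusted p = 0.116, not called) to 4.56 ± 0.28 for Vm34Ca. With control left out, wt alone gave 7 of 7, when 25% of all probe sets were called higher, between 2.31 for Vm34Ca and 2.91 for Vm32E. Vm34Ca had the largest sex difference in mnn- and control flies and the smallest in wt flies, where the male array read 10.83. The count for non-mutants was 3 without the wt female array or without the control male array, when 25.5% and 27% of all probe sets were called higher, and 7 without the control female array, when 25.7% were. With the genotype name in the titles (such as X46_Y79) as a block, yellow-g passed in mnn- flies (adjusted p = 0.00591), and yellow-g (adjusted p = 0.00146) and yellow-g2 (adjusted p = 0.00881) passed in non-mutants. In that fit 4 of 7 genes were called in mnn- flies and 7 of 7 in non-mutants, when 28.2% and 27.4% of all probe sets were called higher.

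**Figure D4:**
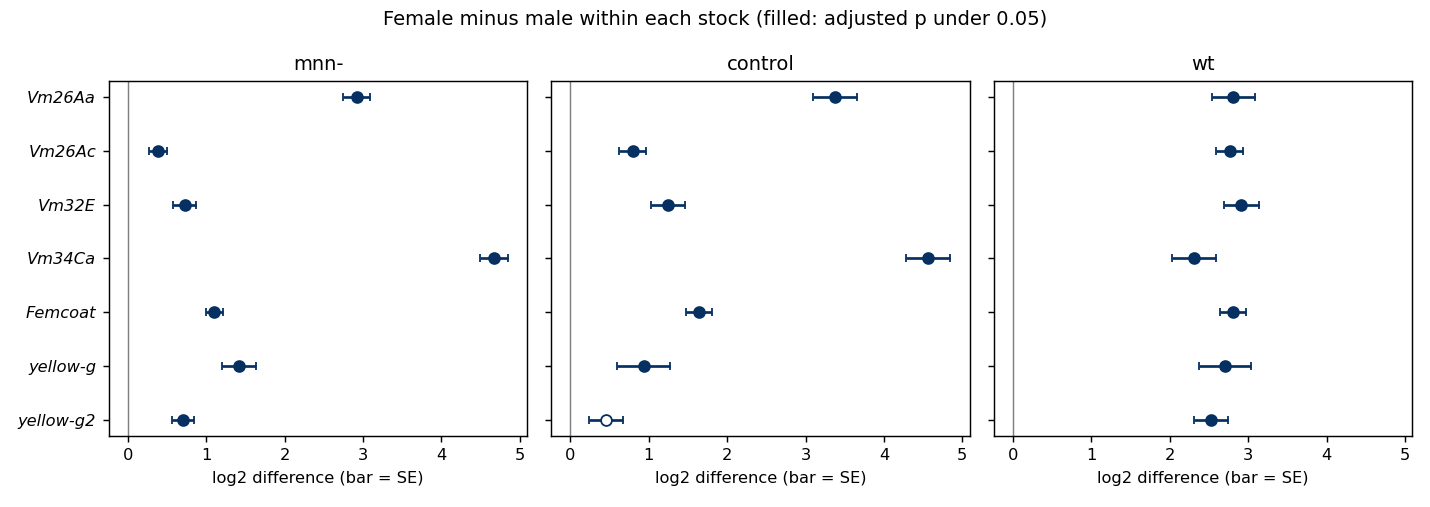
Female minus male log2 difference (x axis, bars are SE of the moderated fit) within mnn-, control and wt flies for the 7 eggshell genes, filled where the adjusted p was under 0.05. In mnn- and control flies Vm34Ca lies farthest right, at 4.67 and 4.56, whereas in wt flies the 7 genes lie together between 2.31 and 2.91.

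The probe sets most like the mean pattern of the 7 genes were ranked by Pearson's r, as a description. Over the 6 female arrays, among 1418 probe sets with an SD of at least 0.2, the 6 nearest were Jon65Aii, a Jonah serine protease gene (r = 0.996), Muc4B (0.993 and 0.991), ndl (0.993), CG6908 (0.992) and CG13299 (0.991). Jon65Aii read 5.47 and 5.66 in mnn- females, 5.65 and 5.52 in heterozygotes, 5.63 in control and 8.04 in wt females. These likenesses rest on the wt female array, which stands apart from the other 5. Over all 11 arrays, among 7227 probe sets, the nearest were dec (r = 0.990), CG13084 (0.982), MsrA (0.972), Cp7Fc (0.969), CG13083 (0.969) and Cbl (0.967), where the points also share the difference between the sexes.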

How the data were processed

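Adult flies were hybridised to 11 1-colour Affymetrix arrays. The deposited values are log2 intensities, 1 for each probe set. The submitters' processing notes name RMA and affy 2.12.0. The sources used here do not state if RMA ran on all arrays at once, and the number of arrays limits the precision. Array medians were 5.47 to 5.53. The 18 embryo arrays (limma 2.12.0, per the same notes) were not used.

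The table holds 14010 probe sets. Without its 44 AFFX controls, 13966 were tested with limma 3.58.1 in R 4.3.3 (lmFit, eBayes, two-sided, Benjamini-Hochberg over all of them, adjusted p under 0.05). GEO's platform annotation gives 12443 a single gene, 327 several and 1196 none, and 12394 matched the RefSeq Release 6 table, used for names and neighbours. The files name no assembly, so no coordinates are given. The fit had 5 levels (mnn-, heterozygote and non-mutant females, mnn- and non-mutant males; 6 residual degrees of freedom). Control against wt used 7 levels (4 residual degrees of freedom). Scripts were tested on simulated data.

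All measured eggshell members are named; from the chorion and assembly lists, the 2 highest and 2 lowest differences; and the 6 nearest patterns. The members and the lists (chorion, eggshell assembly, follicle, germline, yolk, testis, accessory gland) were chosen with earlier results of these data known. Alternatives left out each array, both wt or both control arrays, dim probe sets (at log2 6 or more on fewer than 2 arrays) or the other sex, gave wt and control separate levels, rescaled the arrays, or changed the variance model. A block for the genotype name in the titles was added after seeing the data.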

Additional observations from a re-analysis of the deposited data

How the results depend on the processing

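Control against wt females gave 7 called eggshell genes in every alternative except leaving out dim probe sets, where Vm26Ac and Femcoat were not tested and the other 5 were called. mnn- against heterozygote females gave 0 throughout. Leaving out both control arrays gave 7 called genes for mnn- and for heterozygote against non-mutant females, 5 for mnn- against non-mutant males, 7 for mnn- females against mnn- males and 5 for the difference of the mnn- effect between sexes. Separate wt and control levels gave 5, 5, 2, 7 and 3 for the same comparisons. Of all probe sets, 0.308%, 0.2% and 0.494% were then called lower in the first 3, 31.2% higher in the fourth and 0.136% in either direction in the last. Without both wt arrays mnn- females against mnn- males gave 7, when 31.2% of all probe sets were called higher, as without both control arrays. Non-mutant females against non-mutant males gave 3 of the 5 tested without dim probe sets, when 41.5% of all probe sets were called higher. With trend and robust variance they gave 3 of 7, when 28.5% were. Control against wt males gave 3 of the 5 tested without dim probe sets, when 1.28% of all probe sets were called lower. Counts with 1 array left out at a time are given for fits that kept 2 or more arrays in each compared group. They were 0 for mnn- and for heterozygote against non-mutant females and for mnn- against non-mutant males. At most 0.00716%, 0% and 0.129% of all probe sets were then called. Female against male gave 2 to 7 in mnn- flies and 5 in non-mutant flies. Of all probe sets, 28.6% to 31.1% and 28% to 28.4% were then called higher. The difference between sexes gave 0, when at most 0.0644% of all probe sets were called. With 1 array in a compared group the differences could move widely, as listed below.

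Some uncalled differences changed sign. Without both wt arrays, mnn- minus non-mutant females was 0.50 for yellow-g and 0.34 for yellow-g2, heterozygote minus non-mutant females 0.40 and 0.22, mnn- minus non-mutant males 0.0254 for Vm26Aa, 0.24 for Vm32E, 0.025 for yellow-g and 0.087 for yellow-g2, and the difference between sexes 0.48 for yellow-g and 0.25 for yellow-g2. Without both control arrays the difference between sexes was 0.11 for Vm26Aa. For Vm26Ac, median centring gave 0.0049 and quantile normalization 0.011 for mnn- minus heterozygote females, and 0.0037 and 0.0004 for control minus wt males. Leaving out 1 array at a time, mnn- minus heterozygote females ran from -0.22 to 0.26 for Vm26Aa, -0.15 to 0.10 for Vm26Ac, -0.27 to 0.10 for Vm32E, -0.14 to 0.52 for Vm34Ca, -0.11 to 0.16 for Femcoat, -0.34 to 0.55 for yellow-g and -0.11 to 0.35 for yellow-g2. mnn- minus non-mutant females ran from -3.01 to 0.50 for yellow-g and -2.74 to 0.34 for yellow-g2, and heterozygote minus non-mutant females from -3.11 to 0.40 and -2.86 to 0.22. mnn- minus non-mutant males ran from -2.37 to 0.0254 for Vm26Aa, -0.080 to 0.0052 for Vm26Ac, -0.76 to 0.24 for Vm32E, -1.72 to 0.025 for yellow-g and -0.91 to 0.087 for yellow-g2. Female minus male in non-mutants ran from -0.044 to 3.03 for yellow-g2. The difference between sexes ran from -1.37 to 1.02 for Vm26Aa, -0.88 to 3.35 for Vm34Ca, -2.16 to 1.35 for yellow-g and -2.32 to 0.75 for yellow-g2. Where wt or control arrays were left out, the non-mutant groups held fewer arrays. For the other changes the cause was not tested.

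Over all probe sets the count for control against wt females ran from 48 to 112, for control against wt males from 129 to 468 and for mnn- against non-mutant females from 0 to 130. Array numbers pair no samples, but the titles give some female and male arrays the same genotype name, such as X46_Y79. With that name as a replicate block, added after seeing the data (2 residual degrees of freedom), female against male gave 4 called genes in mnn- and 7 in non-mutant flies, and the difference between sexes 0. In that fit 28.2% and 27.4% of all probe sets were called higher in females, and 0.00716% were called for the difference between sexes. Y79_X46 minus X46_Y79 in females and in males had r = -0.0772 across probe sets, which are not independent replicates. Comparisons within a sex hold each name once and could not be blocked. wt and control rest on 1 array per sex, the probe sets of Vm26Ac and Femcoat read near the low end of the scale, and no array tells egg chamber number from RNA per cell.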
